A study of Mus musculus with 7 samples.

Results

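The 9 genes described here encode the urokinase and tissue-type plasminogen activators (Plau and Plat), the urokinase receptor (Plaur), the serpin Serpine2, the matricellular protein thrombospondin-1 (Thbs1), the aggrecan-cleaving metalloproteases Adamts1 and Adamts4, and the metalloprotease inhibitors Timp1 and Timp3. They were taken by symbol from the 48795 gene identifiers of the count table, each matching 1 identifier, and were chosen with their values after treatment and in the controls already known. The level and treatment values of these 9 genes are therefore a description, and the p-values given for them are no independent support. RNA was sequenced from primary oligodendrocyte precursor cells (OPCs), glial cells from which myelinating oligodendrocytes arise. In 3 libraries the cells had been exposed for 1 hour to 20 µM phenylephrine (PE), which activates α1-adrenergic receptors. In 4 control libraries the cells had no treatment and were also labelled 1 hour. All cells were wild type, of strain CD-1, from pups between postnatal days 4 and 7. PE libraries carry the replicate numbers 2, 3 and 4 and control libraries 1, 2, 3 and 4. A library code in the sample titles joins the PE and the control library of each shared number, while control replicate 1 has no partner. The protocol text shared by all samples also describes tamoxifen, virus injection and immunoprecipitation, which do not match cultured wild-type cells, and the labels name no vehicle and do not say how many animals went into a culture.

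Libraries held 12837463 to 17962339 counts, at which 3 counts equal 0.167 to 0.234 CPM (counts scaled to a common library size). The 10 OPC markers examined were present in every library, with summed levels of 10100 to 11800 CPM in PE libraries and 10500 to 11700 CPM in control libraries, led by Ptprz1 and Pdgfra. The sum does not show how single markers differed between libraries. Gpr17 and Olig1, named after their values were seen, ran from 668 to 4590 CPM and from 1470 to 1920 CPM over the 7 libraries. Within pairs 1 of the 10 fell by the paired test described below, the lineage factor gene Olig2 (log2 change -0.19 ± 0.04, adjusted p = 0.0334, edgeR), with log2 ratios of -0.16, -0.13 and -0.28 in pairs 2, 3 and 4. Sox10, named after its values were seen, was also lower in the 3 pairs (-0.13 ± 0.04) and did not pass (adjusted p = 0.334). Pdgfra was higher in the 3 pairs (log2 ratios 0.12, 0.03 and 0.06) and did not pass (adjusted p = 0.869, edgeR with the block). Of the 10 OPC markers 5 had a log2 change above 0 and 5 below 0. Transcripts marking further cell types were detected too. The 15 microglia and macrophage markers, among them Csf1r, summed to 90.2 to 151 CPM in PE and 75.1 to 137 CPM in control libraries, and all 15 were above 0 in every library. Summed astrocyte markers, led by Slc1a3 and Gfap, were at 1320 to 1950 CPM in PE and 1330 to 1910 CPM in control libraries. Endothelial markers, led by Vwf and Kdr, were at 17.6 to 79.7 CPM in PE and 17.3 to 60.7 CPM in control libraries. Mural, leptomeningeal and fibroblast markers, led by Cspg4, which OPCs also express, and Fn1, were at 660 to 956 CPM in PE and 693 to 847 CPM in control libraries. Neuron markers, led by Map2 and Nefm, were at 1060 to 1370 CPM in PE and 1090 to 1350 CPM in control libraries. Of the neuron markers 1 rose within pairs, the GABA synthesis gene Gad1 (0.83 ± 0.13, adjusted p = 0.00585, edgeR), and no gene of the other marker lists passed. The part of Olig2 and Gad1 in the results below was not tested. Oligodendrocyte markers, led by Cnp and Mbp, were at 1370 to 2180 CPM in PE and 1330 to 3900 CPM in control libraries.

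Plasminogen activators are serine proteases that cut the inactive precursor plasminogen into plasmin, a broad protease of the pericellular space. Urokinase acts at the cell surface when bound to its receptor, tissue-type activator is the main activator of the brain parenchyma, and serpins such as Serpine2 (protease nexin) block both and also thrombin. ADAMTS proteases cut the chondroitin sulphate proteoglycans of the brain matrix (versican, brevican, neurocan and aggrecan), thrombospondin-1 binds cell-surface receptors and promotes synapse formation and activation of latent TGF-β, and TIMP proteins inhibit metalloproteases, with Timp3 also acting on ADAMTS and ADAM enzymes.

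Promoter windows from RefSeq (assembly GRCm38.p6) were at hand for 5 of the 9 genes, namely Adamts1, Plaur, Serpine2, Timp1 and Timp3. They were searched on both strands, over the 250 bases before the transcription start, for TGACG (the core of the cyclic AMP response element), TGACGTCA (its full palindrome, which contains TGACG on each strand), TGANTCA (the AP-1 site) and the CArG box of serum response factor. Adamts1 is shown because it was higher after PE, and Timp1 and Plaur because they carry a match and did not pass the test described below. Capitals mark the matches, and each sequence is written 5′ to 3′ on the strand of its gene.
Adamts1, chr16:85803114-85803363, minus strand: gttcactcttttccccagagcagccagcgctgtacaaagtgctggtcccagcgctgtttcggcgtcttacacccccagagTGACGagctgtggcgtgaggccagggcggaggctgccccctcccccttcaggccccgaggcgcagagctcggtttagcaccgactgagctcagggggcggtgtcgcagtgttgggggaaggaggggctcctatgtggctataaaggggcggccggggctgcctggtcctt
Timp1, chrX:20869916-20870165, plus strand: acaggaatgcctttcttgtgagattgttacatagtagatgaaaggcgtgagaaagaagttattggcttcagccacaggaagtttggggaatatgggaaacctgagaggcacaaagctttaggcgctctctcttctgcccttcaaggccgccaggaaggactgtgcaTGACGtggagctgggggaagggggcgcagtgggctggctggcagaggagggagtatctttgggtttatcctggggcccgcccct
Plaur, chr7:24462233-24462482, plus strand: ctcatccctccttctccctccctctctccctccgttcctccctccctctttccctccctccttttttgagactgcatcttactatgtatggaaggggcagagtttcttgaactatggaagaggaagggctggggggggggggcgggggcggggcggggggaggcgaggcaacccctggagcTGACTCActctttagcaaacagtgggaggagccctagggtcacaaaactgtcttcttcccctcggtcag
Adamts1 and Timp1 each held 1 match to TGACG, starting 170 and 84 bases upstream of the start, a motif present in 17.8% of the 32851 promoter windows of the table. Plaur held 1 match to TGANTCA, starting 69 bases upstream, a motif present in 6.75% of windows. TGACGTCA (1.55% of windows) and the CArG box (1.47%) were in none of the 5 windows, and Serpine2 and Timp3 had no match to any of the 4 motifs.

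After 1 hour of PE, 2 of the 9 genes were higher within pairs, Thbs1 and Adamts1, 1 was lower, Plau, and 6 did not pass (quasi-likelihood test in edgeR with a block for each replicate number, threshold 0.05 on the Benjamini-Hochberg adjusted p over all 15934 tested genes). The verbs rose and fell refer below to genes past that threshold. All 9 genes passed the filter on low counts. Over all tested genes 0.54% were called, 0.502% higher and 0.0377% lower, shares from which nothing is read here because the contrast entered the choice of the 9 genes. The median log2 change of the 9 was 0.01 within pairs, against 0.00 over all tested genes. In the fit without pairs 0 of the 9 genes and 0.0% of all tested genes passed by edgeR, where 1 of the 9 (Thbs1) and 71 of all genes had an unadjusted p under 0.05, and limma-voom and DESeq2 called 0 and 2 genes of the whole table. In bulk RNA a change in the share of a cell type and a change of RNA per cell cannot be told apart.

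**Figure D1:**
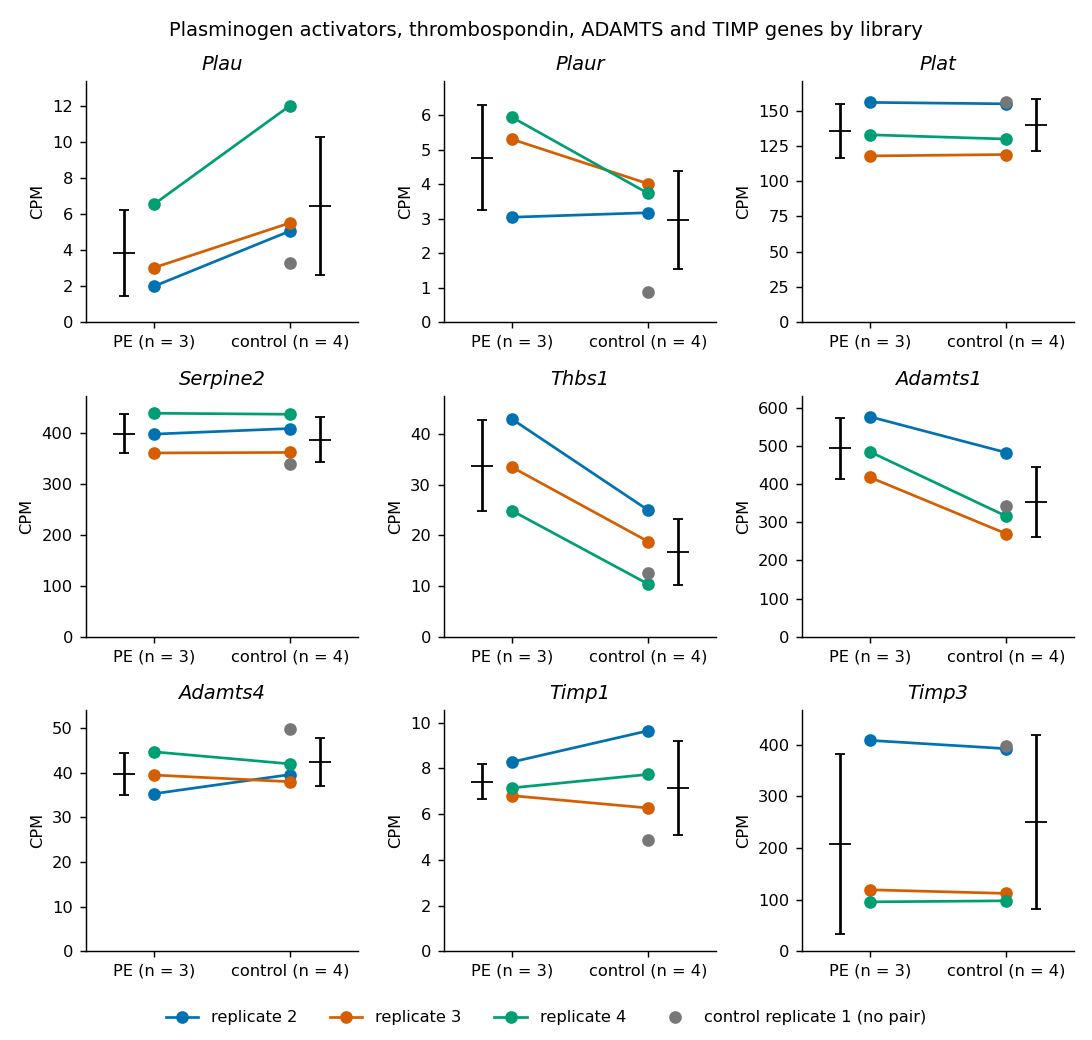
CPM (vertical axes, from 0) of each of the 9 genes in the 3 PE libraries, left, and the 4 control libraries, right; lines join libraries of one replicate number, the grey point is control replicate 1, and black marks are the mean ± SD. The 3 lines of Thbs1 and Adamts1 lie higher at PE than at control, the 3 lines of Plau lie lower at PE, and Timp3 splits by replicate number.

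Urokinase transcripts fell. Plau (ENSMUSG00000021822), on chr14:20836660-20843385 of GRCm38 on the plus strand with no other annotated gene overlapping it, had 1.98, 3.01 and 6.52 CPM in PE replicates 2, 3 and 4, from 28, 38 and 113 counts. In control replicates 1, 2, 3 and 4 it had 3.26, 5.05, 5.50 and 12.0 CPM, from 48, 67, 85 and 212 counts. Each PE library lay below the control of its own number, but the groups overlapped. The control libraries spanned 3.67-fold, and replicate 4 was the highest in both groups. Within pairs 2, 3 and 4 the PE level was 0.408, 0.558 and 0.549 times the control level. The paired fit gave a log2 change of -0.98 ± 0.16 (SE; fold 0.507, adjusted p = 0.00754, edgeR), and the fit without pairs -0.74 ± 0.55 (adjusted p = 1.00). DESeq2 with the same block gave -1.01 and did not call it (adjusted p = 0.177, range over 9 alternatives 7.45e-08 to 0.177, the lowest from a fit with 1 residual degree of freedom). The call rests on 28 to 212 counts a library. Means were 3.84 ± 2.38 CPM in PE and 6.45 ± 3.82 CPM in control libraries (SD, n = 3 and n = 4).

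The receptor of urokinase did not follow it. Plaur had 3.04, 5.30 and 5.94 CPM in PE replicates 2, 3 and 4 and 0.883, 3.17, 4.01 and 3.73 CPM in control replicates 1 to 4. Control replicate 1, with 13 counts, was far below the other three, and the groups overlapped. The log2 ratio of PE over control was -0.06, 0.39 and 0.65 in pairs 2, 3 and 4, and Plaur did not pass (0.39 ± 0.19, adjusted p = 0.882, edgeR with the block). The level of Plau relative to Plaur, both per kilobase of exon, was 0.72, 0.627 and 1.21 in PE replicates 2 to 4, against 4.08, 1.76, 1.52 and 3.55 in control replicates 1 to 4. All PE ratios lay below all control ratios, a description of 2 genes of few counts and not a test. Plau was chosen with its values known, and how many other gene pairs separate the groups was not counted. The ratio of Plat to Plau, given below, overlapped between the groups. The microglia and macrophage markers, a cell type known to express both genes, summed to 132, 90.2 and 151 CPM in PE replicates 2, 3 and 4 and to 132, 86.7 and 137 CPM in the controls of the same numbers, so they were not lower in the libraries in which Plau was. With 75.1 CPM their sum was also lowest in control replicate 1, in which Plau and Plaur were lowest among controls, and their part in the differences between cultures was not tested.

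Tissue-type plasminogen activator and its inhibitor stayed close to the control of their number. Plat had 156, 118 and 133 CPM in PE replicates 2 to 4 and 156, 155, 119 and 130 CPM in control replicates 1 to 4, with log2 ratios of 0.01, -0.02 and 0.04 in pairs 2, 3 and 4 (0.01 ± 0.04, adjusted p = 1.00, edgeR with the block). Serpine2 had 398, 361 and 439 CPM in PE replicates 2 to 4, against 339, 409, 362 and 437 CPM in control replicates 1 to 4. Its log2 change was -0.01 ± 0.04 (adjusted p = 1.00). For these 2 genes the pairs differed by a standard deviation of 0.03 on the log2 scale, the smallest among the 9. Per kilobase, Plat stood 29.9, 14.9 and 7.76 times above Plau in PE replicates 2 to 4 and 18.1, 11.7, 8.24 and 4.11 times above it in control replicates 1 to 4.

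Thrombospondin-1 transcripts rose the most among the 9 genes. Thbs1 (ENSMUSG00000040152), on chr2:118111876-118127133 on the plus strand, had 43.0, 33.5 and 24.9 CPM in PE replicates 2, 3 and 4, from 608, 423 and 432 counts. In control replicates 1, 2, 3 and 4 it had 12.6, 25.0, 18.8 and 10.4 CPM, from 186, 331, 291 and 184 counts. Every PE library was above the control of its number, and the groups touched only where PE replicate 4 lay just below control replicate 2. The fold of PE over control was 1.72, 1.77 and 2.38 in pairs 2, 3 and 4, largest in the culture with the lowest control level. The paired fit gave a log2 change of 0.94 ± 0.09 (fold 1.92, adjusted p = 0.000226, edgeR), rank 3 of all tested genes by p, and the fit without pairs 1.02 ± 0.32 (adjusted p = 1.00). Means were 33.8 ± 9.05 CPM in PE (n = 3) and 16.7 ± 6.55 CPM in control (SD, n = 4). A long non-coding gene on the opposite strand, Gm29233, overlaps exons of Thbs1 and had 1 read in all libraries together.

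The 3′ untranslated region of the longest Thbs1 transcript, 2104 bases in GENCODE M21, held 1 copy of TTATTTATT, the core of AU-rich elements that mark short-lived messages, searched on the sense strand. It is shown because, of the 9 genes, this was the only one with a match in its longest protein-coding transcript, where 7.59% of 20935 transcripts have one. Capitals mark the motif, which starts at base 1136 of the region.
Thbs1 site: taaatacagaTTATTTATTaaccctgttc

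Adamts1 rose and Adamts4 did not pass. Adamts1 (ENSMUSG00000022893), on chr16:85793827-85803113 on the minus strand with no overlapping gene, had 577, 418 and 485 CPM in PE replicates 2, 3 and 4, from 8162, 5282 and 8410 counts. In control replicates 1, 2, 3 and 4 it had 342, 483, 270 and 316 CPM, from 5028, 6409, 4174 and 5586 counts. The 3 PE libraries were each above the control of their number, and 2 of them were above all controls, while PE replicate 3 lay below control replicate 2. The fold within pairs was 1.19, 1.55 and 1.54, smallest in pair 2, whose control was the highest. The paired fit gave a log2 change of 0.50 ± 0.06 (fold 1.42, adjusted p = 0.000495, edgeR), and the fit without pairs 0.48 ± 0.21 (adjusted p = 1.00). With robust estimation of the spread the paired change was still 0.50 but was not called (adjusted p = 0.161, range over 9 alternatives 1.25e-63 to 0.161, the lowest from a fit with 1 residual degree of freedom). Means were 494 ± 79.9 CPM in PE and 353 ± 91.9 CPM in control libraries (SD, n = 3 and n = 4).

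Adamts4, known for its expression in maturing oligodendrocytes, had 35.3, 39.5 and 44.7 CPM in PE replicates 2 to 4 and 49.9, 39.6, 38.0 and 42.0 CPM in control replicates 1 to 4. Its log2 ratios were -0.16, 0.05 and 0.09 in pairs 2, 3 and 4, without a common direction (0.00 ± 0.07, adjusted p = 1.00, edgeR with the block). Its counts are uncertain, since the library kit does not mark strand and reads of the opposite strand at this locus cannot be told apart. Control replicate 1 was highest for Adamts4 and also for the oligodendrocyte markers, which summed to 3900 CPM there and to at most 2180 CPM in the other libraries. Their part in the Adamts4 level was not tested. Per kilobase, Adamts1 stood 14.8, 9.6 and 9.84 times above Adamts4 in PE replicates 2 to 4, against 6.21, 11.1, 6.44 and 6.82 times in control replicates 1 to 4.

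**Figure D2:**
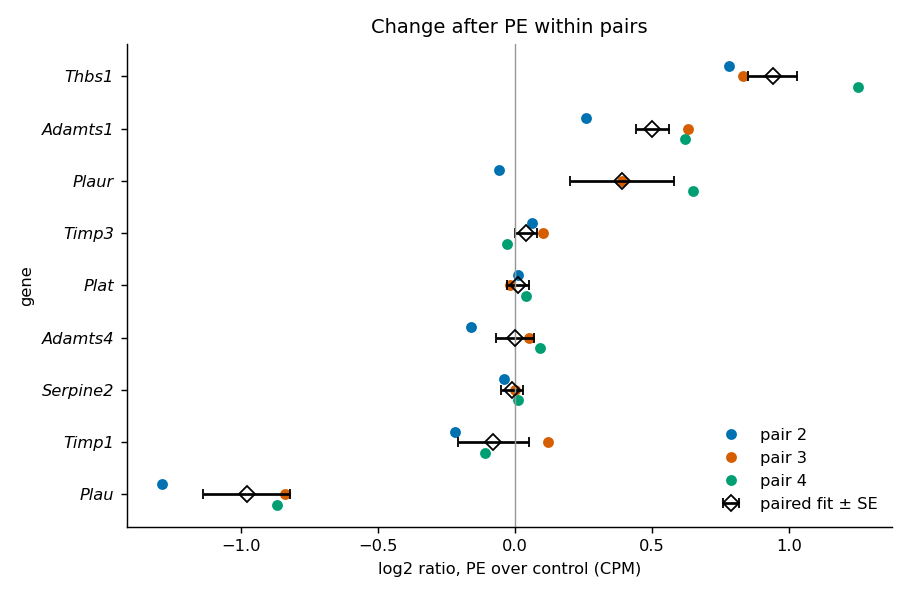
Log2 ratio of PE over control for each gene (horizontal axis) in pairs 2, 3 and 4 (colored points), with the estimate of the paired fit and its SE (diamonds). Thbs1 and Adamts1 lie above 0 in all 3 pairs and Plau below 0, while the other 6 genes have pairs on both sides of 0.

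Of the 9 genes, 3 had log2 ratios of one sign in all 3 pairs, as had 25.4% of all tested genes. The PE and control groups were apart for 0 of the 9 genes and for 1.26% of all tested genes. All PE libraries lay above all controls for 0 of the 9 and for 0.684% of all tested genes, and above the 3 paired controls for 0 of the 9 and for 1.2%. Endothelial cells are known to express Thbs1, Plat and Adamts1, and endothelial markers summed to 79.7, 24.3 and 17.6 CPM in PE replicates 2, 3 and 4, against 60.7, 21.5 and 17.3 CPM in the controls of those numbers. Of the 10 markers, 9 were above 0 in every library (Emcn was at 0 in PE replicate 2) and 3 averaged below 1 CPM. Their sum was higher after PE in each pair, most in pair 2. The leading markers of that sum, Kdr (log2 change 0.47 ± 0.13) and Vwf (0.32 ± 0.11), were higher in the 3 pairs. They did not pass (adjusted p = 0.224 and 0.528, edgeR with the block). Of the 8 tested endothelial markers 5 had a log2 change above 0 and 3 below 0. Cldn5, named after its values were seen, was below 1 CPM and not tested. Its log2 ratios were -0.82, -1.01 and -0.63 in pairs 2, 3 and 4. The endothelial sum was also higher in control replicates 1 and 2 (59.5 and 60.7 CPM) than in control replicates 3 and 4. Genes typical of hepatocytes, described below, split the same way and also rose most in pair 2, but were lower after PE in pair 4. Any link between the 2 sums was not tested. The part of the endothelial markers in the Thbs1 and Adamts1 changes was not tested.

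The 2 TIMP genes did not pass. By the standard deviation of log2 CPM over the controls Timp3 varied most of the 9 genes, while Plaur had the wider span (4.54-fold between its highest and lowest control, against 4.06-fold for Timp3). Timp1 (chrX:20870166-20874735, inside the oppositely oriented synapsin gene Syn1 with no overlap of exons) had 8.28, 6.81 and 7.15 CPM in PE replicates 2 to 4, against 4.89, 9.65, 6.27 and 7.74 CPM in control replicates 1 to 4, with a log2 change of -0.08 ± 0.13 (adjusted p = 0.995, edgeR with the block). Syn1 had 3583 counts over all libraries, against 72 to 137 counts of Timp1 in each single one. The kit does not mark strand, so unspliced Syn1 reads within Timp1 cannot be told apart, and the Timp1 level is uncertain. Timp3 (chr10:86300372-86349506) likewise lies within a synapsin gene of the opposite strand, Syn3, with some overlap of exons; Syn3 had 402 counts over all libraries, against at least 1509 counts of Timp3 in each single one. Timp3 had 408, 119 and 95.6 CPM in PE replicates 2, 3 and 4. In control replicates 1, 2, 3 and 4 it had 397, 392, 112 and 97.7 CPM. Replicates 1 and 2 were thus high and replicates 3 and 4 low whatever the treatment, and within pairs the fold was 1.04, 1.07 and 0.978 (log2 change 0.04 ± 0.04, adjusted p = 0.987). The standard deviation of Timp3 over the 4 controls was 1.11 on the log2 scale, above that of 99.2% of 1061 tested genes within 0.5 log2 units of its level. On the same measure Plaur stood at the percentile 92.5 (SD 0.95), Plau at 88.1 (0.76), Thbs1 at 83.1 (0.56) and Adamts1 at 74.4 (0.35), while Timp1 (0.41), Plat (0.19), Serpine2 (0.17) and Adamts4 (0.17) stood at 58.3, 48.5, 38.4 and 37.8.

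**Figure D3:**
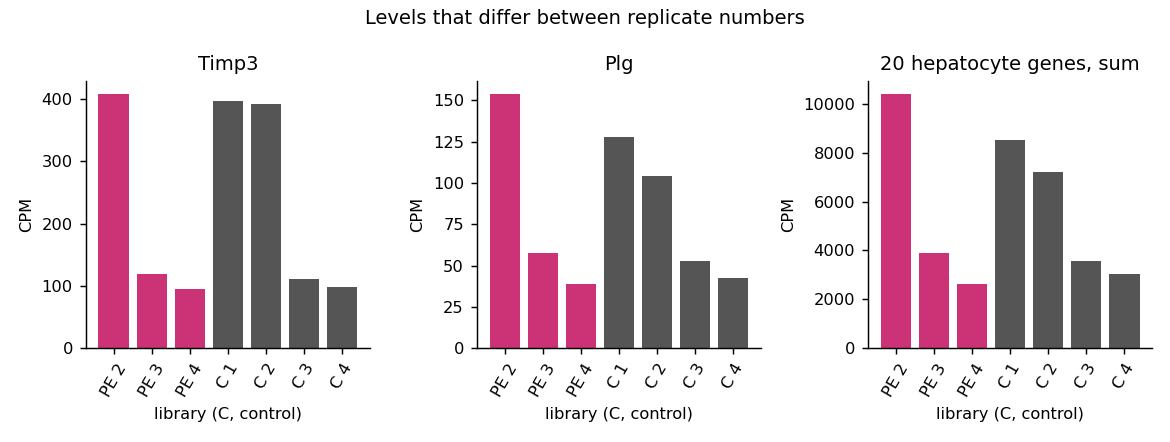
CPM per library (bars, from 0) of Timp3, of the plasminogen gene Plg and of the sum of 20 hepatocyte genes, with PE libraries in red and control libraries (C) in grey. All 3 quantities are higher in the libraries numbered 1 and 2 than in those numbered 3 and 4, in PE and control alike.

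The substrate of the activators, plasminogen, was also detected. Plg, named after its values were seen, had 154, 57.5 and 38.7 CPM in PE replicates 2, 3 and 4 and 128, 104, 52.7 and 42.6 CPM in control replicates 1 to 4, without passing within pairs (log2 change 0.23 ± 0.09, adjusted p = 0.752, edgeR with the block). Plg is made by hepatocytes, and genes typical of hepatocytes were found in every library. A list of 20 such genes, drawn up after the data had been seen, was detected in full in all 7 libraries and summed to 10400, 3880 and 2620 CPM in PE replicates 2, 3 and 4, against 8530, 7210, 3570 and 3050 CPM in control replicates 1 to 4. Albumin (Alb) alone had 1190 to 4730 CPM in PE and 1380 to 3850 CPM in control libraries. Plg counts were a nearly fixed share of Alb counts, at 3.27%, 3.31% and 3.25% in PE replicates 2 to 4 and 3.33%, 3.15%, 3.27% and 3.08% in control replicates 1 to 4. The same held for the antithrombin gene Serpinc1 (1.94% to 2.32% of Alb in PE and 2.21% to 2.26% in control libraries) and the antiplasmin gene Serpinf2 (0.645% to 0.678% in PE and 0.654% to 0.686% in control libraries). For Timp3 the share of Alb varied more, from 6.88% to 8.63% in PE and from 6.93% to 11.9% in control libraries, and for Thbs1 from 0.909% to 2.09% in PE and from 0.328% to 1.17% in control libraries.

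The hepatocyte sum in PE was 1.44, 1.09 and 0.859 times that in control in pairs 2, 3 and 4. With the mean log2 level of these genes added to the paired fit, a setting chosen after seeing the data, the log2 changes were 1.04 ± 0.09 for Thbs1, 0.57 ± 0.03 for Adamts1 and -0.96 ± 0.15 for Plau. That fit leaves 1 residual degree of freedom, and no call is read from it. The part of these genes in the changes after PE and in the Timp3 difference between cultures was not tested. The OPC marker gene Gpr17 also had its higher levels in the libraries numbered 1 and 2. It had 3250, 909 and 668 CPM in PE replicates 2 to 4 and 4590, 3270, 919 and 692 CPM in control replicates 1 to 4. The OPC marker gene Cspg4 did not, with 369, 544 and 424 CPM and 288, 353, 508 and 425 CPM in the same libraries. Any link of Gpr17 to the Timp3 difference was not tested either.

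Compared per kilobase of exon, the control libraries ordered the 9 genes as Adamts1 (66.5 ± 17.3 CPM per kb, SD, n = 4), Serpine2 (46.6 ± 5.36), Timp3 (30.7 ± 20.6), Plat (22.5 ± 2.95), Adamts4 (8.81 ± 1.10), Timp1 (8.04 ± 2.29), Thbs1 (2.75 ± 1.08), Plau (2.72 ± 1.61) and Plaur (1.13 ± 0.543). Plat and Adamts4 did not overlap in any control library, nor did Timp1 and Thbs1, so that the order falls into 3 steps. Within a step each gene overlapped its neighbour. In PE libraries the means per kb were 93.1 ± 15.1 for Adamts1, 5.57 ± 1.49 for Thbs1, 1.62 ± 1.00 for Plau and 1.82 ± 0.582 for Plaur (SD, n = 3). With the longest transcript as the length, Serpine2 (114 CPM per kb) came above Adamts1 (72.2), so the order of these first genes depends on the gene model.

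**Figure D4:**
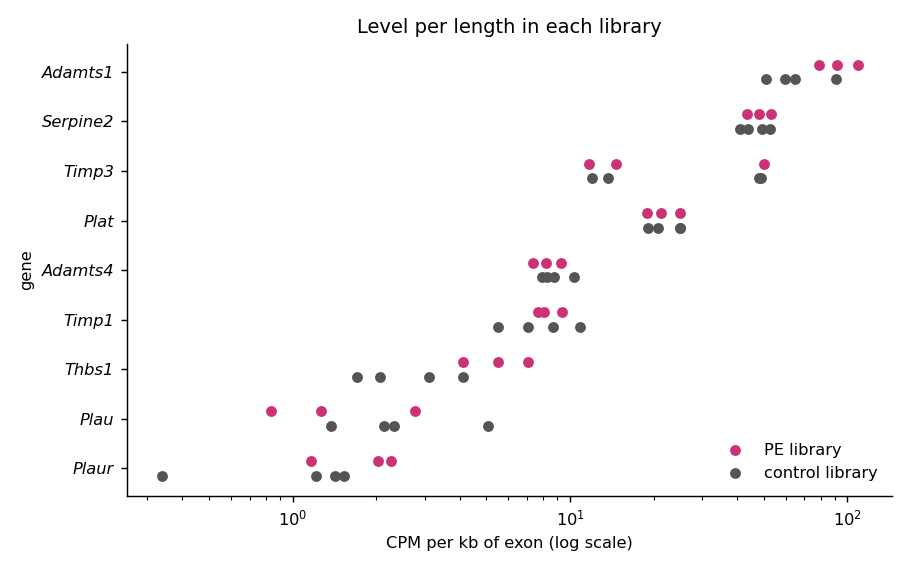
CPM per kb of exon (log scale) of each gene in PE libraries (red, upper row of points) and control libraries (grey, lower row), ordered by the control mean. Adamts1, Serpine2, Timp3 and Plat lie above Adamts4 and Timp1, which lie above Thbs1, Plau and Plaur in the control libraries.

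Tested genes without a symbol or with Gm or Rik names were left out of a search for similar genes. Genes with the most similar course over the 7 libraries were those of smallest root mean square difference of centred log2 CPM among the rest. For Thbs1 they were the retinoid receptor gene Rxrg (0.22 log2 units), the clock gene Per1 (0.31) and the neurotrophin gene Bdnf (0.31). Of these, Per1 rose within pairs (log2 change 0.67, adjusted p = 0.000226, edgeR), while Rxrg (0.87, adjusted p = 0.659) and Bdnf (0.85, adjusted p = 0.370) did not pass. Rxrg averaged 1.37 CPM in PE and 0.738 CPM in control libraries. For Adamts1 they were the IκB family gene Nfkbiz (0.14), the cAMP-responsive factor gene Crem (0.15) and H3f3aos (0.15). Crem rose (0.55, adjusted p = 0.00157), and Nfkbiz, at 0.38, and H3f3aos, at 0.42, missed the threshold (adjusted p = 0.0540 and 0.978). For Plau, whose nearest genes were more distant, they were the cell cycle inhibitor Cdkn2b (0.31), the serotonin receptor gene Htr1b (0.32) and the small nucleolar RNA Snora17 (0.35), none of which passed (adjusted p = 0.887, 0.811 and 0.978). Levels were also low for H3f3aos (0.82 CPM in PE and 0.593 CPM in control libraries), Htr1b (0.769 and 1.11 CPM) and Snora17 (0.484 and 0.621 CPM). All these distances use libraries that share cultures and are a description only.

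Among related genes, grouped by function in lists that include the 9, no other gene passed within pairs. Of 23 tested genes of the plasminogen system (activators, receptors, inhibitors and clearance receptors), 1 fell, Plau, and 22 did not pass, with a median log2 change of 0.10. Of its 19 tested genes outside the 9, 0 passed. Among them Plg, Serpinf2, Cpb2 and Klkb1, genes expressed in liver, were higher after PE in pairs 2 and 3 and lower in pair 4, as was the hepatocyte sum. Hgfac, also expressed in liver, had log2 ratios of 0.43, 0.23 and 0.45 in pairs 2, 3 and 4. Serpinf2, Cpb2, Klkb1 and Hgfac were named after their values were seen. Of 20 ADAMTS family genes 1 rose, Adamts1, and 19 did not pass (median 0.08). Of 20 thrombospondins, thrombospondin receptors and related genes such as Tgfb1, Tgfb2 and Stim1, 1 rose, Thbs1, and 19 did not pass (median 0.00). Its relatives Thbs2 (19.6 CPM in PE and 23.3 CPM in control) and Thbs3 (5.99 and 6.11 CPM), named after their values were seen, had log2 changes of -0.08 ± 0.09 and -0.11 ± 0.17 and did not pass.

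The proteoglycan substrates of ADAMTS enzymes and their partners had 0 of 18 tested genes past the threshold, with a median log2 change of 0.00. The OPC proteoglycan gene Cspg4 (0.05 ± 0.04) and the link protein gene Hapln3 (-0.33 ± 0.19) had the smallest unadjusted p above and below 0. Of 17 tested matrix metalloproteases, TIMPs, Reck and Bsg 0 passed (median -0.01), with Bsg, an inducer of metalloproteases, at 0.06 ± 0.04 and Mmp2, a gelatinase, at -0.11 ± 0.10. Of 14 ADAM proteases and their regulators 0 passed (median -0.01), with Adam23 at 0.12 ± 0.08 and Adam12 at -0.10 ± 0.06. Of 11 tested genes of thrombin and protease-activated receptor signalling 0 passed (median 0.09), with Serpind1, a thrombin inhibitor of hepatic origin, at 0.30 ± 0.13 and the tissue factor gene F3 at -0.14 ± 0.05. The thrombin receptor gene F2r, named after its values were seen, had 160 CPM in PE and 157 CPM in control libraries on average. In all 7 lists 0 genes passed by edgeR without the pairs.

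**Figure D5:**
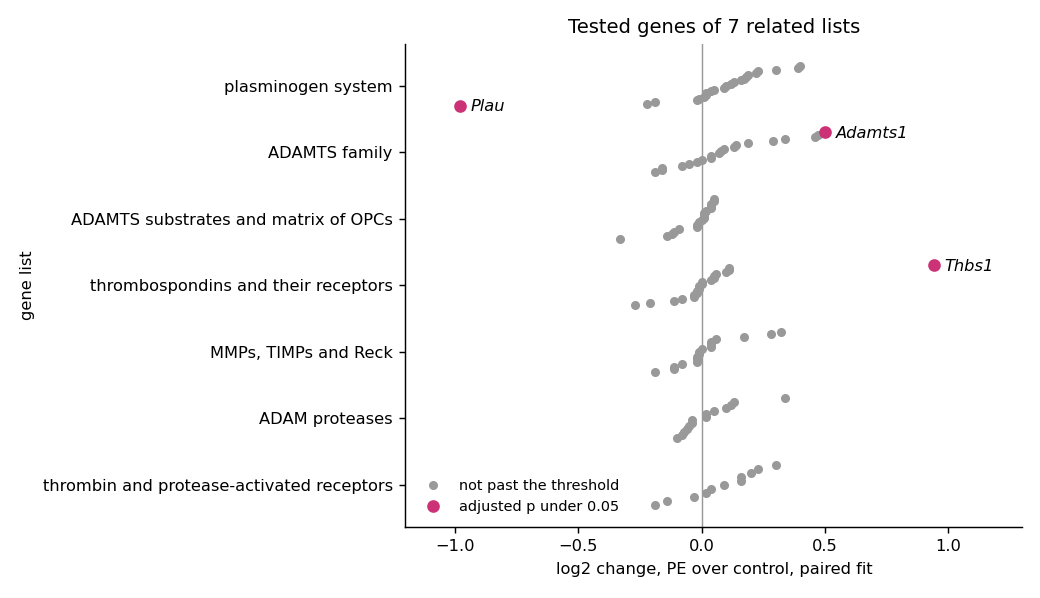
Log2 change of PE over control in the paired fit (horizontal axis) for the tested genes of 7 related lists, 1 point a gene, with genes past the adjusted threshold in red. Plau, Adamts1 and Thbs1 are the red points, at -0.98, 0.50 and 0.94.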

How the data were processed

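Raw counts per Ensembl gene were deposited for 7 libraries. The submitters' processing notes name bcl2fastq 2.17, STAR, HTSeq, GRCm38 and mm10. For annotation release and strand setting, nothing was given in the sources used here. The labels' protocols name the SMART-Seq v4 and Nextera XT kits, which do not mark strand and amplify cDNA, so reads are not independent molecules and floors cover counting error only. No row lacked a gene and 0 columns were unmapped; 48349 identifiers had a symbol. Members and lists were chosen with earlier results of these data known.

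Counts were tested with edgeR 4.0.16 in R 4.3.3 (TMM, filterByExpr with a minimum count of 10 and total of 15, quasi-likelihood F test, two-sided, Benjamini-Hochberg threshold 0.05), with the treatment group alone and with the replicate number as a block; limma 3.58.1 and DESeq2 1.42.0 were alternatives. The deviations of same-numbered libraries from their group means correlated at 0.736 (number 2), 0.674 (number 3) and 0.789 (number 4), over the limit of 0.1, and the library codes share a number, so the numbers were taken as pairs. Libraries of other numbers also passed that limit (PE 2 with control 1 at 0.666, PE 4 with control 3 at 0.364, PE 3 with control 4 at 0.218), so the correlation is not specific to the numbers, though each PE library correlated best with its own. In the paired fit control replicate 1 has no partner and no weight in the effect. No library repeated another (chi-square of 12.0 to 102 per degree of freedom). Replicates are not stated to be separate animals, so the spread behind the p-values may be technical. The paired fit has 2 residual degrees of freedom. CPM uses TMM-adjusted totals and log2 CPM a prior count of 2. SEs derive from the F statistic, which shares its spread over all genes and can be smaller than the spread between pairs. Positions and exon lengths came from GENCODE M21 on GRCm38. The named genes were the 9 members, list genes past the threshold or, with none, the one of smallest unadjusted p in each direction, the leading genes of each marker list and the 3 nearest genes of Plau, Thbs1 and Adamts1; genes outside this rule are marked as such. The procedure was tested on simulated data. Some results are not reported here.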

Additional observations from a re-analysis of the deposited data

How the results depend on the processing

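Without pairs edgeR called 0 genes, also with each library left out, and DESeq2 called 2. With the replicate block edgeR called 86, DESeq2 33, edgeR without the count filter 194 and edgeR with the hepatocyte covariate, added after seeing the data, 347, while leaving out pair 2, 3 or 4 gave 253, 52 and 254. The plasminogen, ADAMTS and thrombospondin lists each had 1 gene past the threshold with the replicate block and 0 without it. Over 9 paired alternatives the log2 change ran from 0.81 to 1.04 for Thbs1, from 0.44 to 0.63 for Adamts1 and from -1.09 to -0.87 for Plau. Of the 9, the hepatocyte covariate and leaving out a pair leave 1 residual degree of freedom, and their p-values say nothing about stability. Of the other 5, Thbs1 was called in all, Adamts1 in all but robust estimation and Plau in all but DESeq2. The cause of these lost calls was not tested. Without pairs, none of the 3 was called under any setting run. The other 6 genes were called under none. The calls rest on 3 pairs, and Plau and Plaur on few counts.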

Other observations

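The membrane-bound metalloprotease gene Mmp15, chosen after its values were seen, ran opposite to Timp3 across cultures. It had 296, 1060 and 947 CPM in PE replicates 2, 3 and 4 and 184, 310, 1060 and 946 CPM in control replicates 1 to 4, low in the libraries in which Timp3 was high. Its log2 change within pairs was -0.02 ± 0.04 and it did not pass (adjusted p = 0.997, edgeR with the block). The kallikrein gene Klk8, also chosen after its values were seen, had 1.91, 1.74 and 3.98 CPM in PE replicates 2 to 4 and 0.204, 2.86, 0.453 and 3.56 CPM in control replicates 1 to 4, with groups that overlapped.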
